A study of Glycine max with 6 samples.

Results

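Loci with GLYMA.06G314400 peaks only are places in the soybean genome with a listed peak of the protein GLYMA.06G314400 in both of its biological replicates. These loci hold no listed peak of the protein GLYMA.13G317000. They were chosen from the peak lists themselves. The peaks of all 4 lists were pooled, peaks that overlapped by 1 bp or more were merged into loci, and loci were kept if they held a peak in both GLYMA.06G314400 lists and in neither GLYMA.13G317000 list. This gave 4025 of 70952 loci. The values that chose them, presence and absence of peaks, are therefore no finding, and peak height, width and summit come from the same lists and are given as description without a test. No filter on low values was applied, and counts by position use the 4000 loci on chromosomes.

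The lists come from chromatin immunoprecipitation with sequencing (ChIP-seq), in which an antibody recovers DNA crosslinked to a protein and the recovered fragments are mapped to the genome. All samples were early maturation embryos of the soybean (Glycine max) cultivar Williams 82, dissected from seeds of 6 to 7 mm and fixed in 1% formaldehyde, with no transgene or treatment named in the labels. GLYMA.06G314400 was precipitated with 3 µg of an antibody to a peptide at residues 302 to 316, and GLYMA.13G317000 with 2 µg of an antibody to residues 1 to 15. Each had 2 biological replicates, and 2 input samples of unprecipitated chromatin, labelled as controls, have no peak list here. Whether they were the control of each peak call is not stated. The labels name no sample that lacks either protein, so what an antibody recovers besides its target cannot be told apart from binding.

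A peak marks a stretch of DNA where precipitated fragments pile up above the local background, and its summit is the position where the pile is highest. Weak peaks lie close to the limit at which a peak caller lists them, so a weak site can appear in one list and be missed in the next. Early maturation is the stage at which soybean embryos begin to store protein and oil. Soybean chromosomes carry most of their genes towards the ends and most of their repeats in the middle, and much of the genome exists in duplicate after ancient doublings. The question these loci bear on is where the binding maps of the 2 proteins differ in the same tissue.

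The 4 lists held 41859 to 60812 peaks and every list ended near a q of 0.01. GLYMA.13G317000 replicate 2 was the shortest list, with 41859 peaks and a median width of 373 bp, against 422 to 512 bp in the others. The numbers of reads behind the lists are unknown, so a locus without a GLYMA.13G317000 peak is one where none was listed, not one shown to lack the protein. Coordinates are those of the deposited lists, whose build no source at hand names, and genes and sequence at the loci were not analysed.

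Few loci of GLYMA.06G314400 were free of GLYMA.13G317000 peaks. Of 48889 loci with a peak in both GLYMA.06G314400 lists, 4025 (8.23%) had none in either GLYMA.13G317000 list. These are 5.67% of all loci. In the other direction, 1998 of 37360 loci with a peak in both GLYMA.13G317000 lists (5.35%) had no GLYMA.06G314400 peak. Both shares follow from the rule and were not tested against each other, and with 2 lists against 2 an exact permutation test has 6 arrangements, of which 2 are always as extreme as the one observed, so none was run. The list of GLYMA.13G317000 replicate 1 set most of the boundary. Of the 44864 loci left out, 34119 (76.0%) held peaks in both GLYMA.13G317000 lists, 10513 (23.4%) held one in replicate 1 alone, and 232 (0.517%) held one in replicate 2 alone. Without GLYMA.13G317000 replicate 1, the rule would have given 14574 loci, and without replicate 2 it would have given 4260.

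The GLYMA.06G314400-only loci were weak sites in both replicates. In replicate 1 their fold enrichment, the authors' ratio of the pile at the summit to the local background, ranged from 1.55 to 10.4 with a median of 3.82. In replicate 2 it ranged from 2.09 to 10.5 with a median of 4.39. The quartiles were 3.28 and 4.54 in replicate 1 and 3.84 and 5.09 in replicate 2, so the bulk of the loci spanned a narrow range of heights. Ranked within their own lists, the median locus stood at percentile 23.8 in replicate 1 and at percentile 18.8 in replicate 2, and the highest at 72.2 and 66.7. Loci with peaks in all 4 lists had median GLYMA.06G314400 fold enrichments of 10.3 and 10.7 in replicates 1 and 2, and both sets overlapped over much of the range of the weaker one. Loci with GLYMA.13G317000 peaks only were also low in the lists of that protein. Their median folds were 3.64 in replicate 1 and 4.77 in replicate 2, at median percentiles of 19.4 and 40.9.

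Most of these peaks nevertheless lay well inside the limit of the lists. The median −log10 q of the GLYMA.06G314400-only loci was 12.1 in replicate 1 and 9.17 in replicate 2, and their lowest values were 2.07 and 2.28. With a q of 1e-05 or less required of the GLYMA.06G314400 peaks and all GLYMA.13G317000 peaks still counted, 3680 loci were left.

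**Figure D1:**
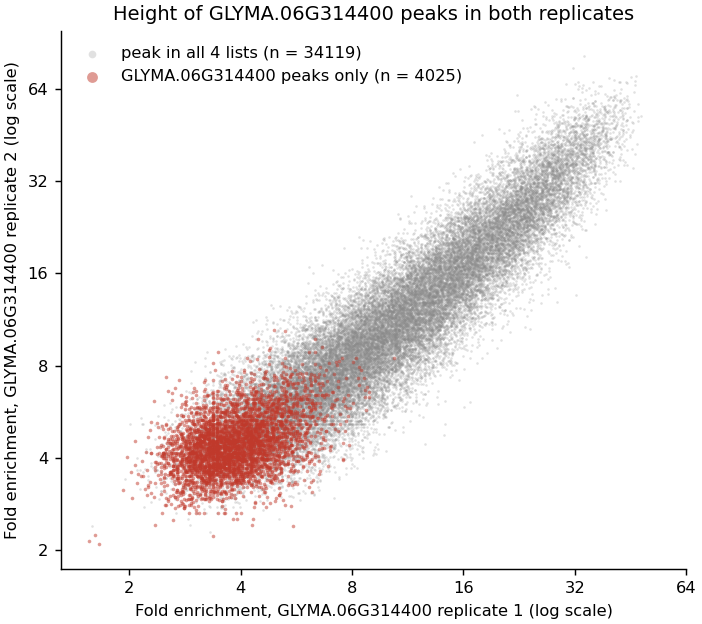
Fold enrichment of GLYMA.06G314400 in replicate 1 (x axis) and replicate 2 (y axis), both on log scales, with 1 point per locus. The 4025 loci with GLYMA.06G314400 peaks only (red) lie at the low end, with medians of 3.82 and 4.39, and the 34119 loci with peaks in all 4 lists (grey) extend from there to 48.4 and 82.3.

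Loci without a GLYMA.13G317000 peak were frequent among weak GLYMA.06G314400 loci and all but missing among strong ones. Loci with both GLYMA.06G314400 peaks were ordered by the lower fold enrichment of the replicates and divided into 10 groups of about equal size. In the weakest group, up to a lower fold of 3.51, 1671 of 4889 loci (34.2%) were GLYMA.06G314400-only. The share was 23.4% in the next group, 14.6% in the third, 7.20% in the fourth and 2.52% in the fifth. Above a lower fold of 6.73 there were 21 such loci among 24444, that is 0.522% of all GLYMA.06G314400-only loci. The 3 strongest groups, from a lower fold of 10.7, held 0, and the upper end of the exact 95% interval was 0.0754% in each (counting error only).

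Between no peak and a peak in both lists stood a broad middle class. In the weakest group 43.5% of loci held a GLYMA.13G317000 peak in replicate 1 alone and 21.0% held one in both lists, and in the sixth group these shares were 12.6% and 86.9%. At the loci with a GLYMA.13G317000 peak in replicate 1 alone, the median lower fold enrichment of GLYMA.06G314400 was 4.31, between 3.67 at the GLYMA.06G314400-only loci and 9.42 at loci with all 4 lists. The GLYMA.13G317000 peak there had a median fold of 4.10, against 8.40 in the same list at loci with all 4 peaks. The classes are those of the rule, so this order of heights is a description of the lists.

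**Figure D2:**
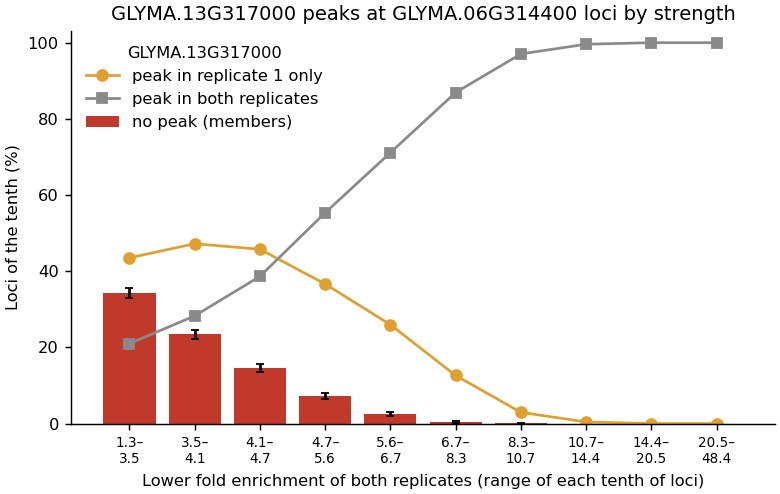
Share of loci (y axis, percent) with no GLYMA.13G317000 peak (bars, with exact 95% intervals), a peak in its replicate 1 only (circles) or in both its replicates (squares), in 10 groups of loci with both GLYMA.06G314400 peaks ordered by the lower fold enrichment of the replicates (x axis, range of each group). The bars go from 34.2% in the weakest group to 0 in the 3 strongest.

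The replicates placed the summits of these weak loci close together but ordered their heights only loosely. The summits of replicates 1 and 2 lay a median of 26 bp apart (quartiles 12 and 51 bp), within 50 bp at 74.8% of the loci and more than 200 bp apart at 1.69%. At loci with all 4 lists the median was 17 bp, and at those with only a replicate 1 peak of GLYMA.13G317000 it was 27 bp. Peaks share a locus only if they overlap, directly or through other peaks, so the merging itself limits these distances. Across the 4025 loci the fold enrichments of the replicates had a Spearman rho of 0.370, against 0.918 over the 34119 loci with all 4 lists, whose heights span a far wider range. The 1998 loci with GLYMA.13G317000 peaks only were similar. There the replicates of GLYMA.13G317000 had a rho of 0.379 and summits a median of 33 bp apart. Loci share their libraries and are not independent, so these values describe the lists. The height was greater in replicate 2 than in replicate 1 at 2906 of the 4025 loci (72.2%), with a median ratio of 1.15, and at 62.6% of loci with all 4 lists, with a median ratio of 1.08.

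The strongest GLYMA.06G314400-only loci, taken by the lower of both fold enrichments, lay on 8 different chromosomes. The first, on chromosome 18 (56614743 to 56615256), reached 10.4 in replicate 1 and 8.48 in replicate 2, and its nearest GLYMA.13G317000 peak was 2803 bp away. The locus on chromosome 13 (45355298 to 45355669) reached 8.20 and 8.48, and no GLYMA.13G317000 peak lay within 17277 bp. A locus on chromosome 17 (6008903 to 6009486) had 8.05 and 8.22 and summits only 4 bp apart, with a further GLYMA.06G314400-only locus 1446 bp away. These are heights near the middle of each list, between percentiles 63.2 and 72.2 in replicate 1 and between 56.4 and 57.9 in replicate 2.

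The next locus, on chromosome 1 (39628017 to 39628544), reached 8.34 and 7.92, and it was the most isolated of the 8, with the next GLYMA.06G314400-only locus 871246 bp away. On chromosome 3 (35384661 to 35385125) the values were 8.46 and 7.74, with a GLYMA.13G317000 peak 2119 bp away. The locus on chromosome 9 (4386801 to 4387211) had 7.53 and 8.48, but a GLYMA.13G317000 peak began 266 bp from its edge. The chromosome 20 locus (40660030 to 40660494) was similar, with 7.39 and 8.30 and a GLYMA.13G317000 peak 630 bp away. The last, on chromosome 5 (28769259 to 28769704), had 7.71 and 7.30. In all 8 the summits of the replicates lay 4 to 44 bp apart, and 3 of the 8 had the same replicate 2 fold of 8.48.

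The weakest loci included 3 that differed from the rest in how height and significance went together. On chromosome 10 (17198681 to 17199048) the fold enrichments were 1.55 and 2.13, yet −log10 q was 11.2 and 22.0. On chromosome 17, a pair of loci 9911 bp apart had 1.62 and 2.23 (23598985 to 23599373) and 1.65 and 2.09 (23588763 to 23589073). Their −log10 q was 16.2 and 32.2 for the first and 18.7 and 24.8 for the second. Among the 83 GLYMA.06G314400-only loci with a lower fold under 2.5, the median −log10 q was 4.57 in replicate 1 and 7.13 in replicate 2. These 3 were the only ones of the 83 with a −log10 q of 10 or more in both replicates. The same limits, chosen after the values were seen, held for 8 of the 72 loci under that fold that also carried a replicate 1 peak of GLYMA.13G317000 and for 1 of the 51 with all 4 lists. A low ratio with a small q can arise where a high pile stands over a high local background. The lists give neither height, so this was not tested for these loci.

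The 1 bp limit of the rule decided few loci. The GLYMA.06G314400-only locus nearest to a GLYMA.13G317000 peak, on chromosome 20 (33849289 to 33849673), was 8 bp from it and had fold enrichments of 2.93 and 3.39. The next, on chromosome 18 (23583975 to 23584263), was 9 bp from one and had 2.65 and 4.52. Just outside the rule, a locus on chromosome 12 (4031955 to 4033260) was left out by an overlap of 2 bp and had GLYMA.06G314400 folds of 2.95 and 3.12, beside GLYMA.13G317000 folds of 4.59 and 11.1. A locus on chromosome 19 (49911369 to 49912324) was left out by 6 bp and had 3.23 and 3.88, and its replicate 1 peak of GLYMA.13G317000 had 3.00. Of all 44864 loci left out, 47 had a longest overlap under 200 bp between peaks of the 2 proteins.

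Nearly all of these loci were single, narrow peaks. In 4015 of the 4025 loci each replicate had 1 peak, 9 had 1 peak in replicate 1 and 2 in replicate 2, and 1 had 2 in each. The loci were 266 to 1147 bp wide with a median of 388 bp, against a median of 693 bp for loci with all 4 lists, where peaks of all lists add to the width. Loci with GLYMA.13G317000 peaks only had a median width of 384 bp. The widest GLYMA.06G314400-only locus, on chromosome 20 (45927740 to 45928886), joined 1 peak of replicate 1 with 2 of replicate 2, and the highest summits of the replicates lay 529 bp apart there. The second widest, on chromosome 17 (9888859 to 9889953), was made in the same way but had summits 9 bp apart, with fold enrichments of 5.56 and 6.03.

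The narrow shape was also seen beside loci of like height. At a lower fold of 3 to 4, the replicate 1 peaks of the 2057 GLYMA.06G314400-only loci had a median width of 349 bp, against 399 bp where a replicate 1 peak of GLYMA.13G317000 was added and 418.5 bp at loci with all 4 lists. In replicate 2 these widths were 288, 302 and 331 bp. At a lower fold of 6 to 7, where 70 GLYMA.06G314400-only loci were left, the replicate 1 widths were 473.5, 494 and 545 bp.

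Summits of the replicates were also nearer to each other at like height. They lay a median of 28 bp apart at a lower fold of 3 to 4 in the GLYMA.06G314400-only loci, against 35 bp at loci with all 4 lists, and 13 bp against 22 bp at 6 to 7. The order was the same in all 4 height ranges for both measures. A wide GLYMA.06G314400 peak has more bases in which a GLYMA.13G317000 peak can fall, so width is not independent of the rule. Narrower peaks also leave less room between summits, but whether the summit distances follow from the widths was not tested. From the lowest to the highest range, the median replicate 1 width of GLYMA.06G314400-only loci rose from 349 to 473.5 bp. Their median summit distance fell from 28 to 13 bp. No test was made.

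**Figure D3:**
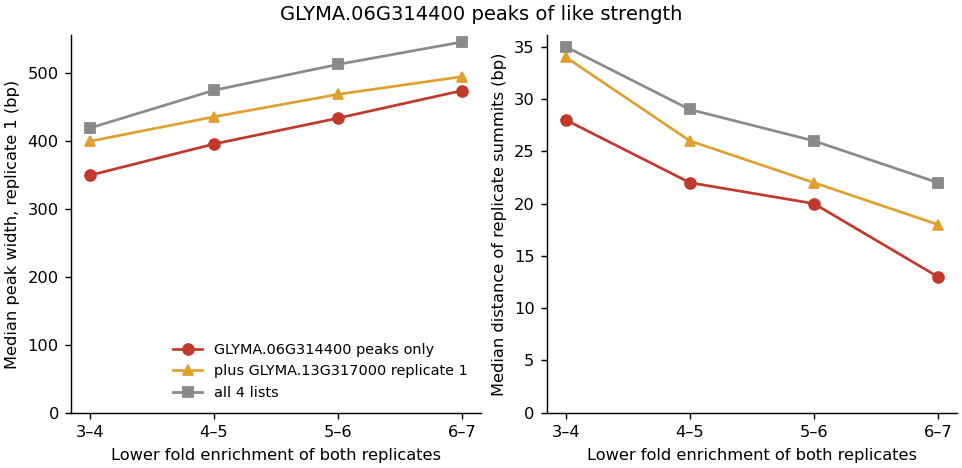
Median width of GLYMA.06G314400 replicate 1 peaks (left, bp) and median distance between the summits of its replicates (right, bp) in 4 ranges of the lower fold enrichment (x axis), for loci with GLYMA.06G314400 peaks only (red), with a replicate 1 peak of GLYMA.13G317000 as well (yellow) and with all 4 lists (grey). The red points are the lowest in each range, from 349 bp and 28 bp in the weakest range to 473.5 bp and 13 bp in the strongest.

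Along the chromosomes these loci followed the general map of binding. Position was not used by the rule. The outer 20% at each chromosome end, 40% of the length up to the last peak, held 2728 of the 4000 GLYMA.06G314400-only loci on chromosomes, or 68.2% (exact 95% interval 66.7% to 69.6%, counting error only). At loci with all 4 lists the share was 68.4%, and at those with GLYMA.13G317000 peaks only it was 73.6%. By chromosome the share was 69.1% ± 10.02 for GLYMA.06G314400-only loci and 69.7% ± 10.8 for loci with all 4 lists (SD over 20 chromosomes). The mean difference between them was −0.603 percentage points ± 4.15, positive on 8 of the 20 chromosomes.

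The extremes fell on the same chromosomes in both classes. GLYMA.06G314400-only loci were most concentrated at the ends on chromosome 4, with 85.4% in the outer parts against 86.2% for all 4 lists, and least on chromosome 13, with 37.8% against 33.2%. The widest gaps between the classes were on chromosome 16, with 63.6% against 72.6%, and on chromosome 12, with 69.1% against 76.4%. The widest in the other direction was on chromosome 15, with 78.0% against 70.9%. On 17 of the 20 chromosomes the share of all-4 loci lay inside the exact interval of the GLYMA.06G314400-only share. The share of loci with GLYMA.13G317000 peaks only was the higher one on 17 of 20 chromosomes, by a mean of 6.06 percentage points ± 5.97 (SD). Loci on a chromosome are not replicates, so these differences were not tested.

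**Figure D4:**
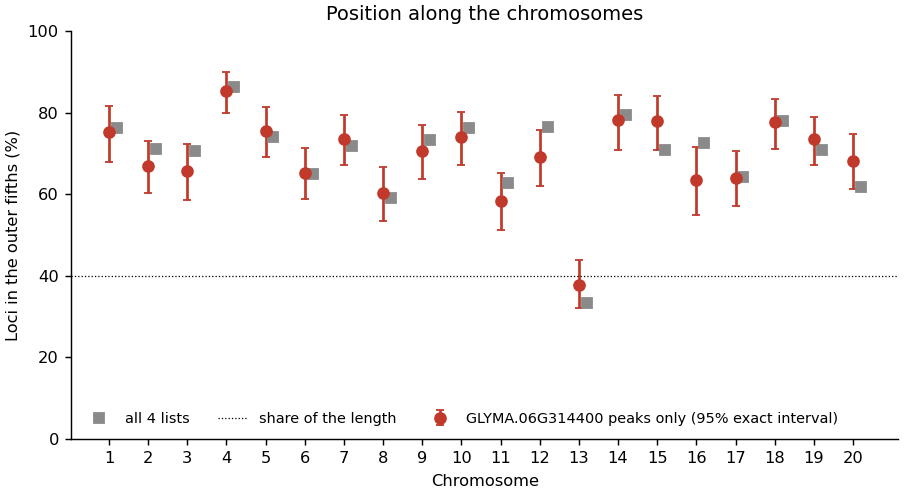
Share of loci in the outer 20% at each end (y axis, percent) on each of the 20 chromosomes (x axis), for loci with GLYMA.06G314400 peaks only (red, with exact 95% intervals) and with all 4 lists (grey). The dotted line marks the 40% of the length these parts make up, and only chromosome 13 lies below it, with 37.8% and 33.2%.

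Every chromosome carried loci of this class in a similar proportion. Their density was 4.28 ± 0.864 per Mb (SD over 20 chromosomes), from 2.85 on chromosome 1 to 6.18 on chromosome 13, which held 283. As a share of loci with both GLYMA.06G314400 peaks they made up 8.26% ± 0.718, from 7.16% on chromosome 1 to 9.70% on chromosome 19. The share also varied little from end to end. In 10 equal parts of each chromosome it was between 7.48% and 8.73%, although the number of such loci ranged from 105 in the sixth part to 807 in the last.

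Unplaced scaffolds held 25 of the 4025 loci (0.621%), against 0.548% of loci with all 4 lists, and scaffold_21 held 8 of them. Among 956 windows of 1 Mb the median was 3 GLYMA.06G314400-only loci, 203 windows held none, and 183 of these held loci with all 4 lists. The fullest window, on chromosome 8 from 4000001 to 5000000, held 20, with 92 loci of all 4 lists and 5 with GLYMA.13G317000 peaks only. Over the windows, counts of GLYMA.06G314400-only loci and of loci with all 4 lists had a Spearman rho of 0.869, as a description of windows that share the same lists.

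GLYMA.06G314400-only loci lay among loci of both proteins. The nearest GLYMA.13G317000 peak was a median of 2333 bp away (quartiles 932.5 and 5700 bp), within 1000 bp at 1065 loci (26.5%) and within 10000 bp at 86.7%. The nearest locus with all 4 lists was a median of 4229 bp away. The 95% interval of that median, 4041 to 4416 bp (order statistics, counting error only), includes the 4107 bp between a locus with all 4 lists and the next such locus. For loci with GLYMA.13G317000 peaks only, the median was 3755 bp. The next GLYMA.06G314400-only locus, by contrast, was a median of 48973 bp away. These loci are 5.67% of all, and the spacing to be had from a class of that size was not worked out.

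Immediate neighbours were of the same kinds as loci in general. The nearest locus of any kind was one with all 4 lists in 48.2% of cases, and such loci are 48.1% of all. In 6.51% it was another GLYMA.06G314400-only locus, beside 5.67% of all loci. It carried GLYMA.13G317000 peaks only in 2.86%, beside 2.82% of all. Most GLYMA.06G314400-only loci stood alone in the order along the genome. Of the 4025, 486 (12.1%) stood next to another of the class with nothing between them, in 219 pairs and 16 runs of 3, and no run was longer. No share expected for a class of this size was worked out, so this count is a description.

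A few lay far from any peak of the other protein. The farthest, on chromosome 5 (17327817 to 17328597), was 598285 bp from the nearest GLYMA.13G317000 peak and had fold enrichments of 4.27 and 3.64. The second, on chromosome 10 (17764922 to 17765376), was 312005 bp from one and had 5.14 and 5.84. The nearest GLYMA.06G314400-only neighbour of that locus, 565873 bp away, was the chromosome 10 locus of low fold and small q described above. Such distances were rare, as 99.5% of these loci had a GLYMA.13G317000 peak within 100000 bp.

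**Figure D5:**
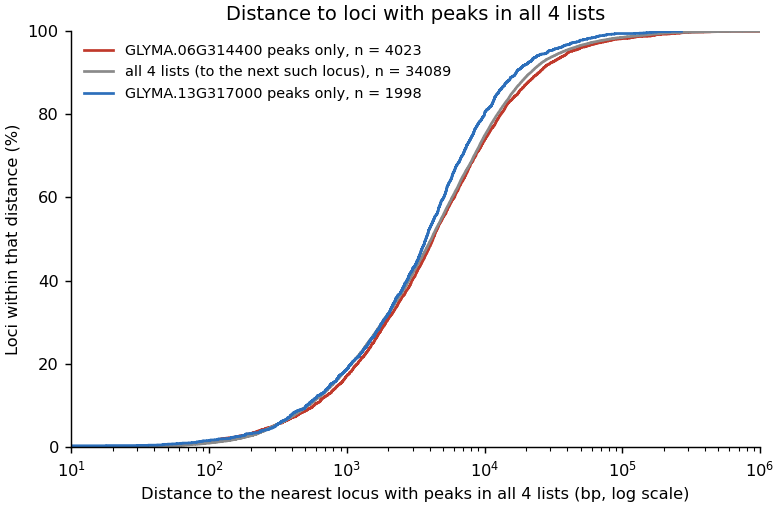
Share of loci (y axis, percent) that lie within a given distance of the nearest locus with peaks in all 4 lists (x axis, bp, log scale), for loci with GLYMA.06G314400 peaks only (red), with all 4 lists, measured to the next such locus (grey), and with GLYMA.13G317000 peaks only (blue). The medians are 4229, 4107 and 3755 bp.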

How the data were processed

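Bowtie 0.12.7, an aligner, and the peak caller MACS2 are named in the submitters' processing notes. No source at hand states the genome build, the controls or the handling of repeated reads. The authors deposited 1 narrowPeak list per precipitated sample, without pooling replicates. Each peak has the authors' fold enrichment (a ratio), −log10 p, −log10 q, summit position and a deposited score derived from q, which was not used. Peaks were merged into loci with Python 3.11.15 (pandas 2.3.3), and a locus took the highest peak of each list. Distances are bases between edges. Chromosome lengths run to the last peak. Shares have exact binomial 95% intervals (SciPy 1.17.1), which cover counting error only. Merging and distances were checked on simulated intervals.

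No test between proteins was made, and inputs have no list here. The members, lists and tests were chosen with earlier results of these data known. The rule for naming took the 8 strongest and 3 weakest loci by lower fold, the 2 nearest to and 2 farthest from GLYMA.13G317000 peaks, the 2 nearest exclusions, the 2 widest loci and the fullest 1 Mb window. The gene table at hand (59048 genes) belongs to another or unknown build, and 0 of its genes carry either identifier, so no gene, motif or sequence is given. Alternatives were overlap, gap, q, list length, scaffolds, single libraries and replicate numbers.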

Additional observations from a re-analysis of the deposited data

How the results depend on the processing

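The number of GLYMA.06G314400-only loci stayed within 1.5 times 4025 with an overlap of 50% of the shorter peak, gaps of 200 and 1000 bp to GLYMA.13G317000 peaks, a q of 1e-05 in all lists or in those of GLYMA.06G314400 alone, and placed chromosomes alone. With the 41859 best peaks of each list it was 2682, or 7.19% of loci with both GLYMA.06G314400 peaks, with a median lower fold of 4.99 and a median of 5051 bp to a locus in all lists; fewer weak peaks enter there by construction. Leaving out single libraries gave 4260 to 14574 loci, shares of 8.71% to 29.8%, median folds of 3.45 to 4.21, outer shares of 67.8% to 68.6% and distances of 3228.5 to 4250 bp. Where a GLYMA.06G314400 list was left out, the fold was that of its other list alone. Distances in these settings ran to loci with a peak in all lists kept. Both points also hold for the replicate blocks below. The count was 6047 without GLYMA.06G314400 replicate 1, 10400 without its replicate 2 and 14574 without GLYMA.13G317000 replicate 1, since fewer lists then have to hold or lack a peak. A gap of 1000 bp gave a share of 6.05%, an outer share of 66.6% and a distance of 5748.5 bp, and a q of 1e-05 in the GLYMA.06G314400 lists alone gave a share of 7.69%. The outer share moved beyond its interval in 1 of 13 settings, the gap of 1000 bp.

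With a replicate block (lists of 1 replicate number alone) there were 10733 loci for number 1 (17.7%, 2651 bp) and 17786 for number 2 (33.4%, median fold 4.52, 3977.5 bp); the rule itself asks for the same pattern within both numbers. Samples with the same number also carry the same tag in their descriptions, inputs included, so the labels tie them together, but they do not say whether it marks a harvest, a batch or something else. Over 34119 loci with all 4 lists, differences in log2 fold between replicates 1 and 2 correlated between the proteins at 0.507. This value has no comparison beside it, and pairing was not tested. Unknown read depth limits all counts, since weak GLYMA.13G317000 binding may go unlisted.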
